A study of Homo sapiens with 8 samples.

Results

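The clusters of chromosome 22 in K562 cells were examined on both sides of the BCR locus. K562 is an erythroleukemia line, and its cells had been engineered to express SF3B1 with a 3x-Flag tag, either as SF3B1-3xFlag K700E or as SF3B1-3xFlag WT. After nuclease digestion of nuclear extracts, branch site complexes were recovered with an antibody to SF3A2 (3 K700E and 3 wild-type libraries) or to the Flag tag (1 K700E and 1 wild-type library), 8 libraries in all. Per the labels, both genotypes were grown alike and no other treatment differed between them. The sources used here do not say whether each genotype was 1 clone. Each combination of antibody and genotype was given as 1 table, for SF3A2 pooled over its libraries, of read clusters with ranked predicted branch points on hg19, so every value below comes from 1 table or from the union of 4 tables.

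The members were selected on the chromosome and on cluster start, and chromosome 22 itself was chosen with its Flag listing by genotype already known. The listing by genotype is therefore a description, with no test. Chromosome 22 held 2811 of the 122826 clusters in the union of the tables (2.29%). Of these, 795 started below the boundary at 23.5 Mb and 2016 above it. The last cluster below began at 23063296 and the first above at 23523320, and none spanned the boundary. Chromosome 22 contributed 2606 clusters to the SF3A2 K700E table, 2025 to SF3A2 wild type, 1628 to Flag K700E and 1628 to Flag wild type. The tables hold no read numbers, no copy number and no strand, and the depth of a cluster is unknown. Bracketed ranges are 95% intervals, Wilson intervals for shares and normal intervals for differences. They cover counting error only, treat neighbouring clusters as independent and include no replicate error.

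The U2 snRNP recognises the branch site of an intron, the short element upstream of the 3′ splice site whose adenosine attacks the 5′ splice site in the first step of splicing. SF3B1 closes around the helix that U2 snRNA forms with the branch site, SF3A2 is a neighbouring subunit of the same particle, and K700E is a recurrent substitution of SF3B1 in myeloid neoplasms that is known for the use of other branch sites and of cryptic 3′ splice sites. In K562 cells the BCR gene of chromosome 22 is fused to ABL1 of chromosome 9, and the line is known to carry extra copies of the fused region. BCR and ABL1 are given here as background and no cluster was assigned to a gene.

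Clusters were denser below the boundary. In 1 Mb bins that held at least 1 cluster, the median was 134 clusters below the boundary (7 bins, 1 to 260) and 64.5 above it (28 bins, 2 to 202), 2.08 times as many. The median over the 2486 such bins of the rest of the genome was 31.5. The ratio of the medians was 1.85 in the SF3A2 K700E table, 2.38 in SF3A2 wild type, 2.00 in Flag K700E and 2.20 in Flag wild type, so all 4 tables were denser below. With 0.5 Mb bins the ratio was 1.31. Relative to the length from the first cluster to the boundary, and from the boundary to the last, the density was 109 clusters per Mb below and 72.8 above.

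The clusters below were not spread evenly. Between 19 and 23 Mb lay 692 of the 795, against 102 between 16 and 19 Mb and 1 between 23 Mb and the boundary. The limits of 19 and 23 Mb were set after the values were seen. Here and in later paragraphs, values for this stretch are therefore a description. The densest bins below began at 19, 20 and 21 Mb and held 260, 150 and 148 clusters. The bin at 19 Mb ranked 21 of 2522 in the genome. The densest bins above began at 50, 38 and 41 Mb, with 202, 183 and 134 clusters. The ranges of the bins on the 2 sides overlapped widely.

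**Figure D1:**
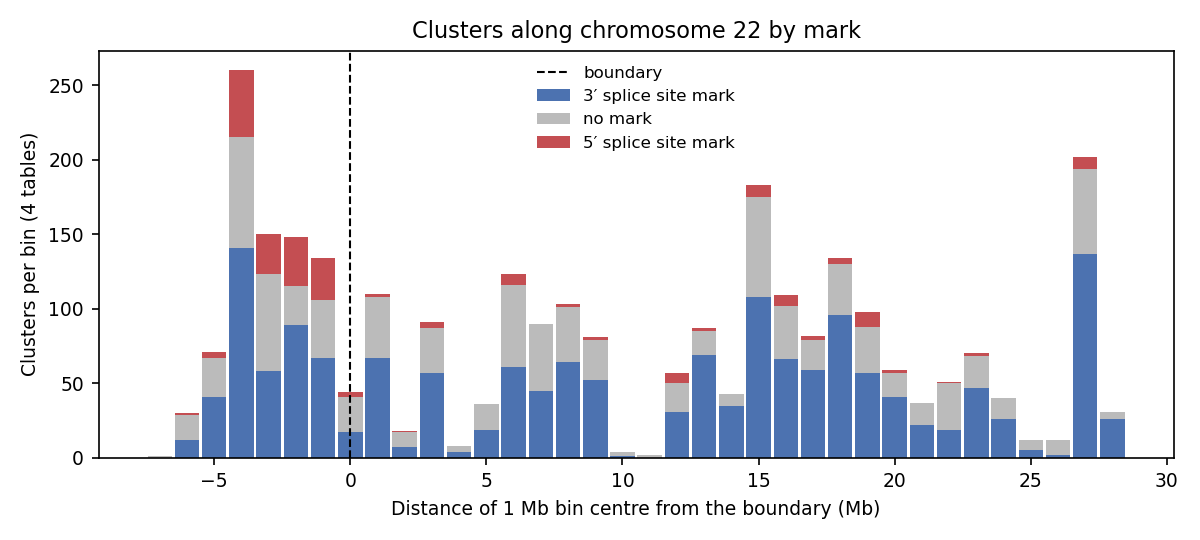
Clusters per 1 Mb bin of chromosome 22 in the union of the 4 tables (vertical axis), by the distance of the bin centre from the boundary in Mb (horizontal axis), stacked by the mark in the cluster identifier. The 4 adjacent bins just below the boundary hold 134 to 260 clusters and carry most of the 5′ splice site marks.

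Each cluster identifier carried a 3′ splice site mark, a 5′ splice site mark or no mark. These marks are taken as the authors' annotation, and the sources used here do not define them. The 5′ splice site is the site bound first by the U1 snRNP, at the other end of the intron from the branch site. The 5′ mark set the clusters below the boundary apart from those above it. It was carried by 138 of 795 clusters below (17.4%, 14.9 to 20.1%), by 75 of 2016 above (3.72%, 2.98 to 4.64%) and by 5.43% in the rest of the genome. The difference between the sides was 13.6 percentage points (10.9 to 16.4). Of the 138 marked clusters below, 133 lay between 19 and 23 Mb, where they made up 19.2% of the clusters.

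The tables differed in how many such clusters they held. For SF3A2 K700E, 72 of 686 clusters below the boundary carried the 5′ mark (10.5%), and for SF3A2 wild type 136 of 655 did (20.8%). The Flag K700E table held 3 of 430 (0.698%) and Flag wild type 23 of 498 (4.62%). Above the boundary the shares were 2.45% in SF3A2 K700E, 4.67% in SF3A2 wild type, 0.167% in Flag K700E and 0.708% in Flag wild type. In the rest of the genome they were 3.56%, 6.72%, 0.460% and 0.823% in the same tables. Thus on both sides and genome-wide the mark was more frequent in wild type than in K700E and in SF3A2 than in Flag, and in every table its share was higher below the boundary than above. In Flag K700E this rests on 3 and 2 marked clusters. Among clusters of all 4 tables the mark was rare on both sides, with 3 of 378 below and 2 of 869 above, a difference of 0.56 points.

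Over whole chromosomes, chromosome 22 had the highest share of 5′ marks of the 23 that were ranked (7.58%, 6.66 to 8.61%). Chromosomes 19 and 1 came next, at 7.31% and 6.98%, both within that interval. Among the 916 bins of the genome with at least 50 clusters, the median share was 5.33% and the 95th percentile 12.3%. The bins at 21, 22, 20 and 19 Mb held 22.3%, 20.9%, 18.0% and 17.3%, which ranked 2, 3, 7 and 8. One bin of another chromosome ranked above all of them, at 24.1%. Among the 20 bins with the highest shares, adjacent bins occurred in 2 places, these 4 bins and the bins from 133 to 135 Mb of chromosome 9, the chromosome that carries ABL1. That pair was picked after its values were seen, and a link to the fusion or to copy number was not tested. It held 260 clusters, of which 48 carried the 5′ mark (18.5%, 14.2 to 23.6%).

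**Figure D2:**
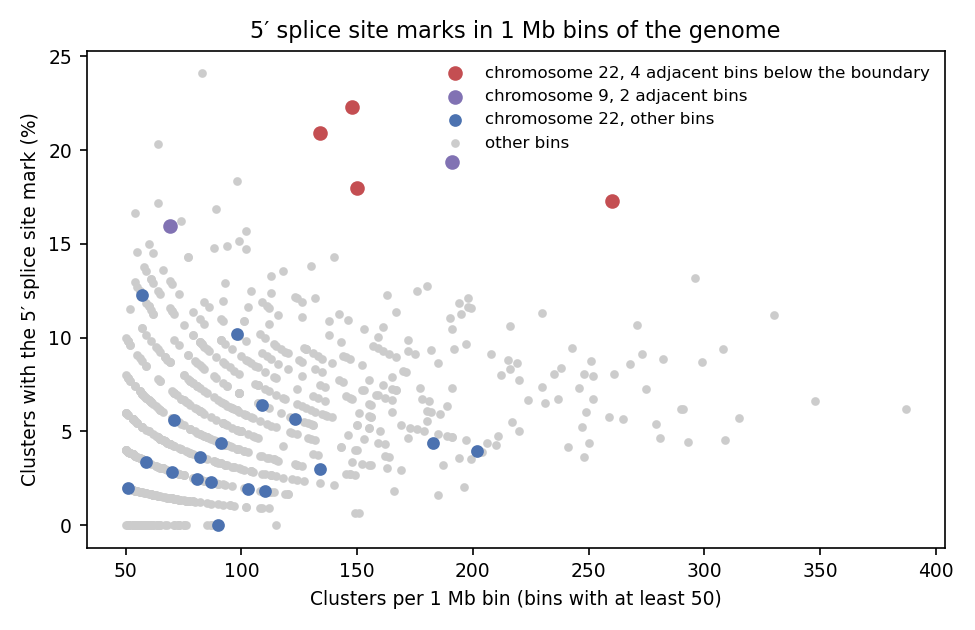
Share of clusters with the 5′ splice site mark in percent (vertical axis) against the number of clusters in each 1 Mb bin (horizontal axis), for the 916 bins of the genome with at least 50 clusters. The 4 adjacent bins of chromosome 22 lie between 17.3% and 22.3%, above the 95th percentile of 12.3%.

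The clusters with the 5′ mark lay near clusters with the 3′ mark. Below the boundary, 84 of 138 had the midpoint of a 3′-marked cluster within 200 nt of their own (60.9%, 52.5 to 68.6%), against 40 of 75 above (53.3%, 42.2 to 64.2%) and 51.8% in the rest of the genome. Clusters without a mark were this close in 7.26% of cases below, 3.85% above and 3.61% in the rest. The 5′-marked clusters lay mostly on 1 side. Of the 84 below, 76 lay on the side of the cluster end nearer to the neighbour's own top-ranked branch point (90.5%, 82.3 to 95.1%). Above, 31 of 39 did so (79.5%), and 85.0% in the rest of the genome. Unmarked clusters within the same distance lay on that side in 5 of 18 cases below, 5 of 26 above and 24.7% in the rest.

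A few sites show the arrangement. They were picked after their values were seen, each as the first by position in its listing class among the 5′-marked clusters between 19 and 23 Mb that lay within 200 nt of a 3′-marked one. The 5′-marked cluster chr22:19029295-19029320 was listed for SF3A2 wild type only, with its branch point at 19029303. It lay 197 nt from the 3′-marked cluster chr22:19029487-19029522. The 5′-marked cluster chr22:19371119-19371160 was listed in both SF3A2 tables and in Flag wild type, each with the branch point 19371132, and lay 117.5 nt from a 3′-marked cluster. At chr22:22899941-22899983, 1 of the 3 such clusters below found in all 4 tables, the top-ranked branch point was 22899955 in every table, and the neighbouring 3′-marked cluster was 70 nt away.

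The share of clusters with the 3′ splice site mark was lower below the boundary, at 51.4% (48.0 to 54.9%), than above, at 61.5% (59.3 to 63.6%). It was 58.6% in the rest of the genome. The difference of -10.0 points (-14.1 to -5.94) was not kept when the 5′-marked clusters were left out. Among the other clusters, 62.3% carried the 3′ mark below and 63.8% above, a difference of -1.58 points (-5.86 to 2.7). By table, the share below against above was 57.6% and 63.2% in SF3A2 K700E, 51.3% and 64.1% in SF3A2 wild type, 71.2% and 67.8% in Flag K700E, and 66.3% and 68.2% in Flag wild type. The Flag K700E table therefore had the opposite direction. So did the clusters of all 4 tables, with 74.3% below and 69.9% above.

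The listing by genotype differed between the sides in both immunoprecipitations. In SF3A2, 125 clusters below the boundary were listed for K700E only and 94 for wild type only. The K700E share of these genotype-specific clusters was 57.1% (50.5 to 63.5%). Above, 617 were listed for K700E only and 67 for wild type only, a K700E share of 90.2% (87.7 to 92.2%). The rest of the genome had 86.8%. The share below minus that above was -33.1 percentage points (-40.1 to -26.2). As a share of all clusters, K700E-only listing in SF3A2 was 15.7% below and 30.6% above, against 29.0% over the whole series. Wild-type-only listing was 11.8% below and 3.32% above, against 4.46% over the whole series.

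In the Flag immunoprecipitation, 42 clusters below the boundary were listed for K700E only and 110 for wild type only, a K700E share of 27.6% (21.1 to 35.2%). Above, 268 were listed for K700E only and 200 for wild type only, a share of 57.3% (52.7 to 61.7%). The rest of the genome had 58.1%. The difference between the sides was -29.6 points (-38.0 to -21.2). As a share of all clusters, Flag K700E-only listing was 5.28% below and 13.3% above, against 12.3% over the whole series. Flag wild-type-only listing was 13.8% below and 9.92% above, against 8.96% over the whole series. Over the whole chromosome, the K700E share was 82.2% in SF3A2, the third lowest of 23 chromosomes, and 50% in Flag, the second lowest. Chromosome 18 was lowest in both, with 80.8% and 46.7%. With the 5′-marked clusters left out, the SF3A2 share was 91.6% on chromosome 22 and 92.3% in the rest of the genome. The Flag share was then 52.2% and 58.7%.

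The sizes of the tables restate these counts. The K700E table minus the wild-type table is the K700E-only count minus the wild-type-only count. Below the boundary, the K700E table held 1.05 times as many clusters as the wild-type table in SF3A2 and 0.863 times in Flag. Above, it held 1.40 times as many in SF3A2 and 1.06 times in Flag. The same ratios in the rest of the genome were 1.35 and 1.06. The part of the chromosome above the boundary was thus close to the rest of the genome in both immunoprecipitations, with differences in K700E share of 3.43 points (1.18 to 5.68) in SF3A2 and -0.84 points (-5.36 to 3.69) in Flag. The overlap of the tables rests on the same counts. Clusters of the wild-type table below the boundary were also found for K700E in 85.6% of cases in SF3A2 and 77.9% in Flag. Above, the values were 95.1% and 82.3%.

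**Figure D3:**
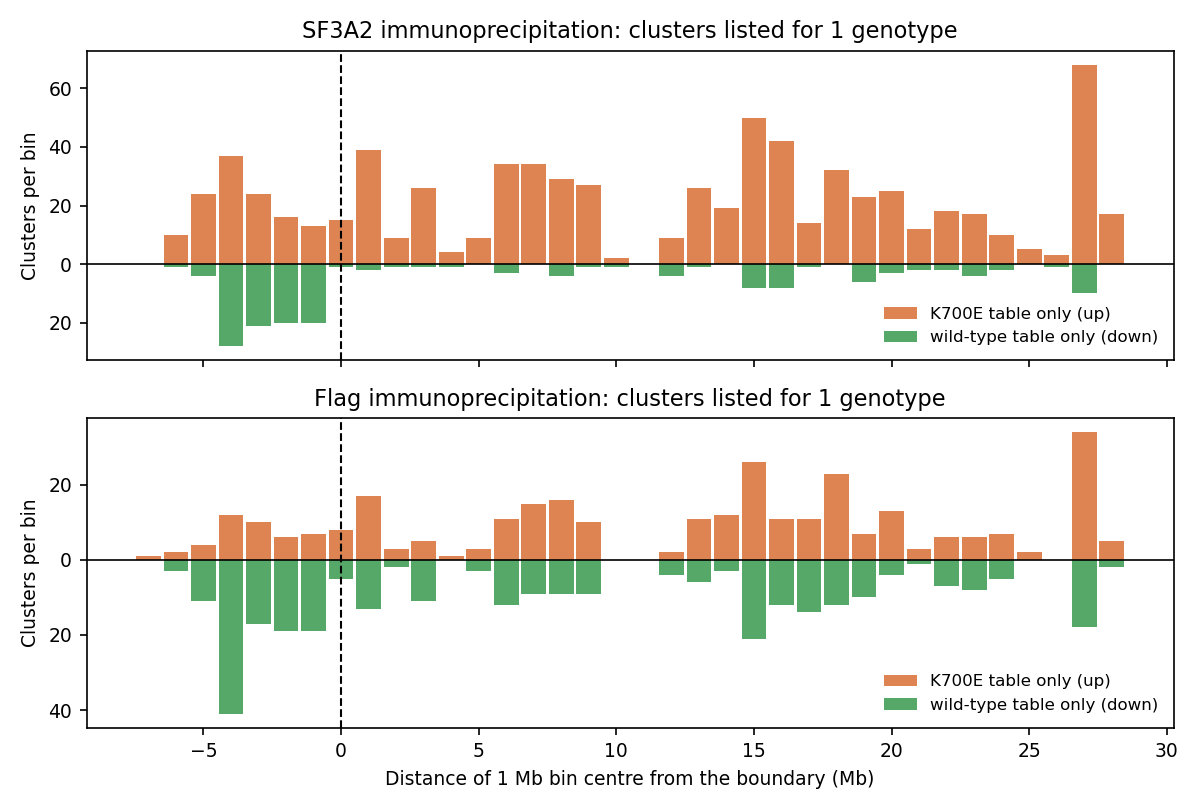
Clusters listed for 1 genotype only per 1 Mb bin of chromosome 22, K700E upward and wild type downward, for SF3A2 (upper panel) and Flag (lower panel), by the distance of the bin centre from the boundary in Mb. In SF3A2, the 4 bins just below the boundary have 20 to 28 wild-type-only clusters each, and no bin above has more than 10.

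With clusters of every mark counted, the SF3A2 shift was not the same along the part below. Between 19 and 23 Mb, 90 clusters were listed for K700E only and 89 for wild type only in SF3A2, a K700E share of 50.3% (43.0 to 57.5%). Between 16 and 19 Mb, the counts were 34 and 5, a share of 87.2% (73.3 to 94.4%), which overlaps the interval above the boundary. Of the 89 wild-type-only clusters between 19 and 23 Mb, 65 carried the 5′ mark. With the 5′-marked clusters left out, the share was 78.8% (70.3 to 85.3%) between 19 and 23 Mb. It was 89.2% (75.3 to 95.7%) between 16 and 19 Mb, and these 2 intervals overlap. The values by bin that follow include the 5′-marked clusters. In the Flag tables the counts were 35 for K700E and 96 for wild type between 19 and 23 Mb (26.7%, 19.9 to 34.9%), and 7 and 14 between 16 and 19 Mb (33.3%, 17.2 to 54.6%). Counted over both immunoprecipitations, the bins below with the most genotype-specific listings began at 19, 20 and 21 Mb with 118, 72 and 61, and those above at 50, 38 and 39 Mb with 130, 105 and 73. By bin, the SF3A2 K700E share was 56.9% at 19 Mb, 53.3% at 20 Mb, 44.4% at 21 Mb and 39.4% at 22 Mb. The Flag share in the same bins was 22.6%, 37.0%, 24.0% and 26.9%, and intervals of neighbouring bins overlapped in both. Among the 762 bins of the genome in which 20 or more clusters were genotype-specific in SF3A2, the bins at 22, 21, 20 and 19 Mb ranked 4, 5, 10 and 14 from the lowest SF3A2 share. The 2 bins of chromosome 9 named above had 43 K700E-only and 21 wild-type-only clusters in SF3A2 (67.2%, 55.0 to 77.4%), and 18 and 28 in Flag (39.1%, 26.4 to 53.5%). Among bins with 20 or more genotype-specific clusters, the lowest share in both immunoprecipitations was at 90 Mb of chromosome 5. It was 20% in SF3A2 and 6.67% in Flag.

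The counts on the 2 sides of the gap around the boundary differed. Between 22 and 22.5 Mb, 9 clusters were listed for K700E only and 17 for wild type only in SF3A2, and 6 and 15 in Flag. Between 22.5 and 23 Mb the numbers were small, at 4 and 3 in SF3A2 and 1 and 4 in Flag. Between 23.5 and 24 Mb, 14 clusters were listed for K700E only and 1 for wild type only in SF3A2, and 8 and 5 in Flag. In the first 0.2 Mb above the boundary there were 24 clusters, of which 10 carried the 3′ mark, 3 the 5′ mark and 10 were in all 4 tables. The 2 clusters just below the gap were each listed in 1 table. Cluster chr22:22900770-22900788, unmarked, was in SF3A2 wild type only, and chr22:23063296-23063328, with the 3′ mark, was in SF3A2 K700E only with its branch point at 23063317. Just above the gap, the unmarked cluster chr22:23523320-23523348 was in both SF3A2 tables at 23523337, and chr22:23529985-23530022, also unmarked, was in all 4 tables with its top-ranked branch point at 23530011 in each.

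The mark divided the SF3A2 listing. Among 3′-marked clusters, 66 were listed for K700E only and 7 for wild type only below the boundary (90.4%, 81.5 to 95.3%), and 348 and 13 above (96.4%, 93.9 to 97.9%), a difference of -5.99 points (-13.0 to 1.03). Among unmarked clusters the counts were 57 and 21 below (73.1%, 62.3 to 81.7%) and 258 and 26 above (90.8%, 86.9 to 93.7%), a difference of -17.8 points (-28.2 to -7.37). Among 5′-marked clusters they were 2 and 66 below (2.94%, 0.81 to 10.1%) and 11 and 28 above (28.2%, 16.5 to 43.8%). Of the 94 wild-type-only clusters below, 66 thus carried the 5′ mark, against 2464 of 5322 in the rest of the genome. In the rest of the genome the K700E share in SF3A2 was 96.0% for 3′-marked, 88.1% for unmarked and 25.9% for 5′-marked clusters, so 5′-marked clusters leaned to wild type there too. With the 5′-marked clusters left out, the SF3A2 difference between the sides was -12.5 points. What part the higher cluster density had in it was not tested.

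In Flag the lean to wild type below the boundary was present in every mark class. Among 3′-marked clusters, 18 were listed for K700E only and 42 for wild type only below (30%, 19.9 to 42.5%), against 163 and 122 above (57.2%, 51.4 to 62.8%), a difference of -27.2 points (-40.1 to -14.3). Unmarked clusters gave 24 and 48 below (33.3%, 23.5 to 44.8%), against 105 and 72 above (59.3%, 52.0 to 66.3%). The 5′-marked clusters were 0 for K700E and 20 for wild type below (0 to 16.1%), and 0 and 6 above (0 to 39.0%). The rest of the genome had 153 and 380 of these (28.7%). With the 5′-marked clusters left out, the Flag difference between the sides was -26.2 points.

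**Figure D4:**
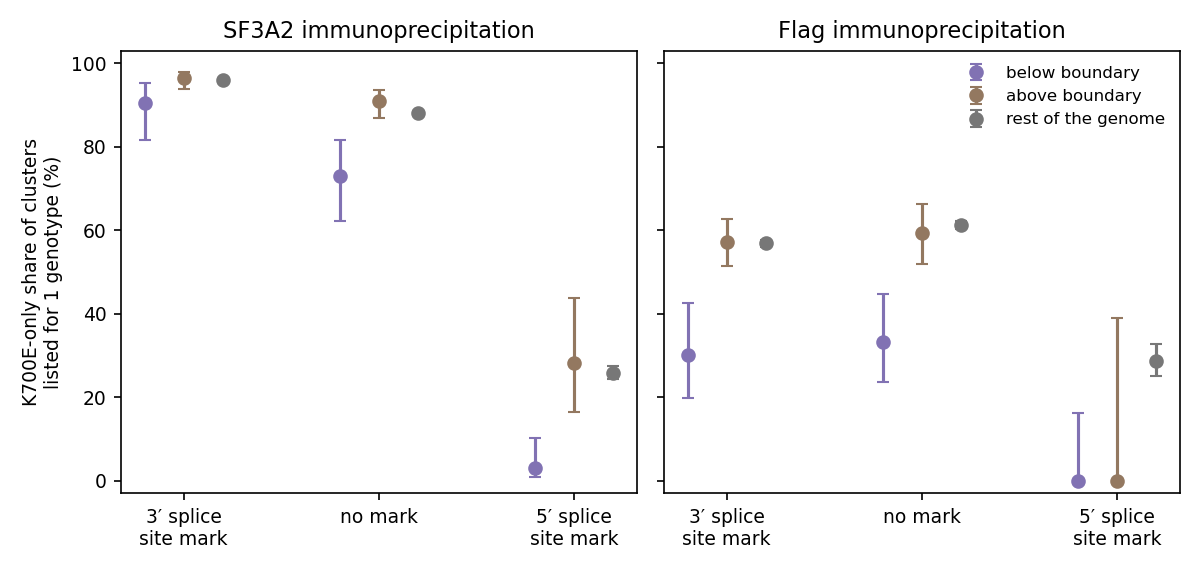
K700E share in percent of the clusters listed for 1 genotype (vertical axis) by mark, below the boundary, above it and in the rest of the genome, for SF3A2 (left) and Flag (right), with 95% Wilson intervals. In Flag the 3′-marked and unmarked clusters below lie at 30% and 33.3% and those above at 57.2% and 59.3%. In SF3A2 the 3′-marked clusters lie at 90.4% below and 96.4% above, and the unmarked clusters at 73.1% and 90.8%.

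The combination of tables that listed a cluster showed where the sides differed. SF3A2 wild type alone listed 10.9% of the clusters below and 3.17% above, against 3.82% in the rest of the genome. Of these, 65 of 87 below carried the 5′ mark (74.7%), 27 of 64 above (42.2%) and 52.1% in the rest. SF3A2 K700E alone listed 10.4% below and 18.7% above, against 18.7% in the rest. Clusters missing only from Flag K700E made up 9.81% below, 6.40% above and 5.81% in the rest. Clusters missing only from Flag wild type made up 2.52% below, 6.30% above and 5.88% in the rest. The share listed in all 4 tables was 47.5% below and 43.1% above, a difference of 4.44 points (0.35 to 8.53), and 45.3% in the rest.

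Clusters listed for K700E in both immunoprecipitations and for wild type in none numbered 17 below (2.14%, 1.34 to 3.40%) and 128 above (6.35%, 5.37 to 7.50%), against 5.88% over the whole series. None of these 145 carried the 5′ mark, and 84 carried the 3′ mark (57.9%). Over the whole series, 22 of the 7217 such clusters carried the 5′ mark (0.305%) and 57.6% the 3′ mark, so the marks were much the same. The first 3′-marked ones by position below were chr22:17579603-17579636, chr22:18218375-18218408 and chr22:18613543-18613578. Their top-ranked branch points in both K700E tables were 17579621, 18218387 and 18613565. The first 3′-marked ones above were chr22:24133900-24133932, chr22:24452611-24452644 and chr22:24583125-24583157. Of these, the cluster at 24452611 had the same top-ranked branch point, 24452636, in both tables, and each of the others had a tie at the top in 1 table.

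Clusters listed for wild type in both immunoprecipitations and for K700E in none numbered 6 below (0.75%, 0.35 to 1.64%) and 2 above (0.10%, 0.03 to 0.36%), against 0.375% over the whole series. The 3 below with the 3′ mark were chr22:19223409-19223443, chr22:19382092-19382128 and chr22:22036680-22036726. Each had 1 branch point, the same in both tables, at 19223418, 19382107 and 22036708. Both clusters above lay far from the boundary. One was the 5′-marked chr22:38155261-38155296 with its top-ranked branch point at 38155282, and the other the unmarked chr22:45730294-45730335 with 45730326.

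The number of branch points listed per cluster was compared within the clusters of all 4 tables, so that every table lists each of them. It may still depend on the depth of a cluster in each table, which is unknown. Below the boundary these 378 clusters had a mean of 2.76 ± 0.64 branch points in SF3A2 K700E, 2.57 ± 0.78 in SF3A2 wild type, 2.21 ± 0.88 in Flag K700E and 2.46 ± 0.87 in Flag wild type (SD over clusters, which are not replicates). Above, the 869 clusters had 2.61 ± 0.72 in SF3A2 K700E, 1.99 ± 0.88 in SF3A2 wild type, 1.83 ± 0.83 in Flag K700E and 1.78 ± 0.84 in Flag wild type. The rest of the genome had means of 2.72, 2.17, 2.01 and 1.95 in the same tables. The means below were above those of the other 2 sets in every table, and the gap was widest in the wild-type tables. Ranks ran from 1 to 3, so more than 3 branch points in a cluster needed ties. Below the boundary, 79.6% of the clusters already had 3 or more in SF3A2 K700E and 66.9% in SF3A2 wild type. Above, 67.3% and 33.4% did. The SF3A2 K700E table thus had the least room to rise, and the part of this limit in the gaps was not tested.

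Within the same cluster, K700E minus wild type in SF3A2 was 0.20 branch points below (0.12 to 0.27), 0.62 above (0.56 to 0.68) and 0.55 in the rest of the genome. In Flag it was -0.25 below (-0.33 to -0.17), 0.05 above (-0.00 to 0.10) and 0.06 in the rest. Below the boundary, 41 clusters had more branch points in Flag K700E, 111 had more in Flag wild type and 226 had equal numbers. Above, 199 had more in Flag K700E and 170 more in Flag wild type. The Flag difference thus ran toward wild type below the boundary, also in clusters found in every table. Between 16 and 19 Mb it was -0.26 (-0.49 to -0.02, 43 clusters), and between 19 and 23 Mb -0.25 (-0.33 to -0.16, 335 clusters). In Flag wild type, the bins at 22 and 21 Mb had the eighth and the ninth highest mean of 991 bins with at least 20 such clusters, at 2.55 and 2.53.

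**Figure D5:**
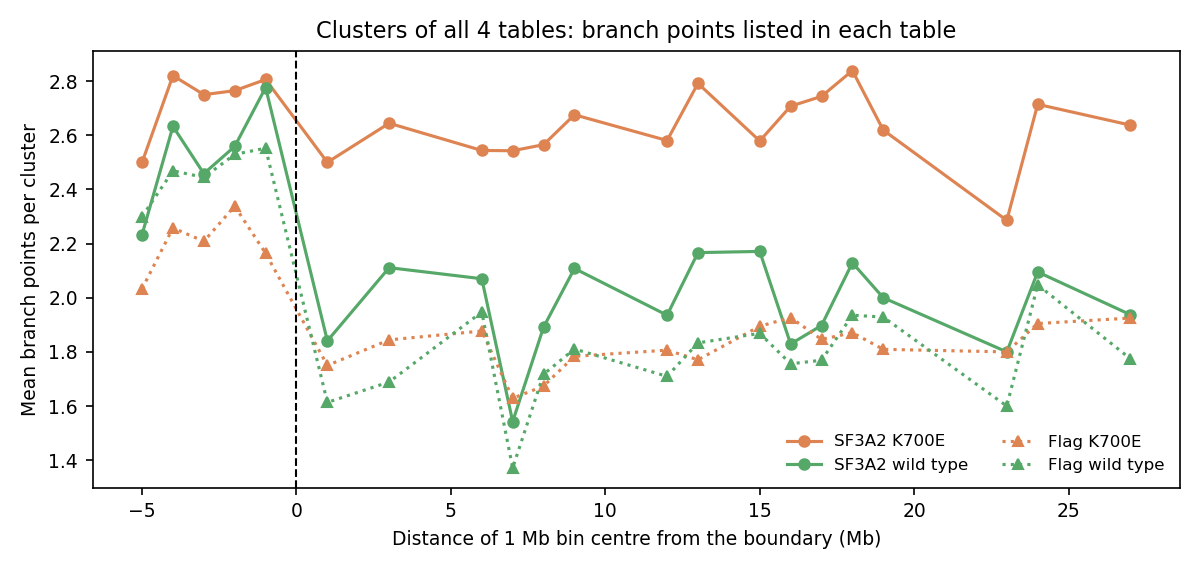
Mean number of branch points per cluster (vertical axis) in clusters of all 4 tables, for 1 Mb bins with at least 20 such clusters, by the distance of the bin centre from the boundary in Mb; 1 line per table. Below the boundary the Flag K700E points lie below the Flag wild-type points in each bin shown, and the SF3A2 lines lie closer together than they do above.

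A genotype switch was a cluster whose K700E tables shared 1 top-ranked branch point and whose wild-type tables shared a different one, with no ties. Of the clusters with a single top in each of the 4 tables, 22 of 354 below switched (6.21%, 4.14 to 9.23%) and 39 of 804 above (4.85%, 3.57 to 6.56%), against 5.15% over the whole series. The difference between the sides was 1.36 points (-1.56 to 4.28), an interval that includes 0. The same disagreement between the immunoprecipitations was seen in 5 clusters below (1.41%) and 7 above (0.87%), against 1.30% over the whole series. Between crossed pairs of tables it was seen in 4 below (1.13%) and 10 above (1.24%), against 1.01%. Genotype switches were thus more frequent than either of the other divisions on both sides, as they were over the whole series.

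The tables carry no strand, so the direction of a switch was taken relative to the cluster end nearer to its top-ranked branch points, which lay at a median of 12 nt in every table on both sides. The K700E branch point was the nearer one to that end in 18 switches below and farther in 4, and nearer in 31 above and farther in 8. Over the chromosome the share toward the nearer end was 80.3% (68.7 to 88.4%), against 71.8% in the rest of the genome (70.0 to 73.5%). No switch on the chromosome moved by more than 8 nt. A shift of 4 nt was seen in 10 switches below, all toward the nearer end, and in 17 above, of which 11 were toward it. In the rest of the genome, 818 of 2544 switches with a direction shifted by 4 nt, 616 of them toward the nearer end. The counts on chromosome 22 are small beside these.

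The switches named here were taken as the first 3 by position with the 3′ mark on each side and in each direction. Toward the nearer end below, chr22:18274075-18274109 was the first of them, and both K700E tables had 18274084 at the top, against 18274088 in both wild-type tables. In chr22:18314889-18314921 the K700E top was 18314898, against 18314902 in wild type. In chr22:19029487-19029522, the neighbour of the 5′-marked cluster described above, it was 19029502, against 19029505. Above the boundary, they were chr22:26063648-26063688, with 26063676 for K700E and 26063672 for wild type, chr22:26224690-26224723, with 26224711 and 26224708, and chr22:32180751-32180784, with 32180774 and 32180772. These 6 shifts were of 2 to 4 nt.

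The switches away from the nearer end were longer below in the sites named. In chr22:19752439-19752483 the K700E tables had 19752460 at the top, against 19752467 in wild type. In chr22:20102609-20102641 the K700E top was 20102620, against 20102612, and in chr22:21159461-21159495 it was 21159481, against 21159474. These were shifts of 7, 8 and 7 nt. Above, chr22:24456337-24456376 had 24456358 for K700E and 24456363 for wild type, chr22:25016251-25016284 had 25016270 and 25016274, and chr22:26264240-26264277 had 26264259 and 26264263, shifts of 5, 4 and 4 nt. The sites were chosen by position and mark, so their sizes do not describe the class.

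Clusters on the 2 sides had nearly the same width, with a median of 35 nt below (interquartile range 33 to 39) and 34 nt above (32 to 37).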

How the data were processed

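U2 IP-seq of K562 cells was analysed from 4 deposited tables. The submitters' processing notes name hg19, STAR 2.7.6a and cutadapt. Per the labels, inserts were 24 to 55 nt long. Per the file headers, each row gives a cluster, its position, a branch point and its rank. The authors deposited this rank as a score of 1, 2 or 3 with ties, and the sources used here do not say what it rests on. They do not say how replicates were pooled or clusters called either. Positions are those of the tables, with a count from 0 or from 1 not stated. The extract text mentions HEK293 where it describes the reads, and all other labels give K562. The SF3A2 K700E table had 1 row without a cluster identifier, which was left out.

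Clusters were matched by identifier and counted with pandas 2.3.3, scipy 1.17.1 and numpy 2.4.6 under Python 3.11.15 and drawn with matplotlib 3.10.9. The bin that straddles the boundary was left out of the bin medians. Distances between clusters were taken from midpoint to midpoint. The counting was checked on simulated data, where it returned the simulated listings and switches. No p-value was computed, since no combination of antibody and genotype has replicate values.

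Members, lists and tests were chosen with earlier results of these data known. The named sites were the first 3 by position per side and class, 3′-marked ones first, the last 2 below and first 2 above the boundary, and the bins were the 3 densest and the 3 with the most genotype-specific clusters per side. Neither sequence nor gene positions of hg19 were used here, so the gene lists and the branch site sequence gave no result. Alternatives covered the boundary, bins, cluster sets, overlap and ties.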

Additional observations from a re-analysis of the deposited data

How the results depend on the processing

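Of 51 alternatives for 6 results, 36 stayed within the value's 95% interval (for the density ratio, within 1.5 times), 13 moved further and 2 reversed the sign. The density ratio, 2.08, was 1.31 with 0.5 Mb bins. The Flag difference in K700E share, -29.6 points, was -21.2 by branch points. The SF3A2 difference, -33.1 points, was -5.99 in 3′-marked clusters, -42.9 in clusters without that mark, -12.5 without 5′-marked clusters and -3.03 with 16 to 19 Mb in place of everything below. The difference in the 3′ mark, -10.0 points, was 4.49 in clusters of all 4 tables, 3.38 in the Flag K700E table, -5.60 in SF3A2 K700E, -1.97 in Flag wild type and -1.58 without 5′-marked clusters. The difference in the 5′ mark, 13.6 points, was 0.56 in clusters of all 4 tables, 8.05 in SF3A2 K700E, 0.53 in Flag K700E and 3.91 in Flag wild type. Settings that leave out 5′-marked clusters or use a part of the region below, and all of those on the 5′ mark, were chosen after seeing the data. For the switches all 5 alternatives stayed within the interval. Moving the boundary by 1 Mb changed no direction.

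No paired analysis was possible because each combination of antibody and genotype had 1 table, for SF3A2 pooled over its libraries, and for the same reason no replicate was left out. Without read numbers, a cluster missing from a table cannot be told apart from one sequenced too shallowly, and the larger SF3A2 K700E table cannot be matched in depth to the others.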
